A study of Mus musculus with 6 samples.

Results

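The genes described here carry the Hedgehog and platelet-derived growth factor (PDGF) signals that pass between the cords and the interstitium of the testis. They are desert hedgehog (*Dhh*), its receptor and effector genes *Ptch1*, *Smo*, *Gli1*, *Gli2*, *Gli3* and *Hhip*, the ligand gene *Pdgfa* and the receptor gene *Pdgfra*. They were chosen by name, and all 9 were found once each among the 54532 genes of the table. The data were RNA-seq profiles of 6 mouse testis samples taken at 5 days postpartum (5 dpp), 3 control (Ctrl) and 3 conditional knockout (cKO). In cKO mice a *Vasa*-Cre transgene, active in germ cells, deleted part of *Srsf1*, which encodes a splicing factor, and the study gives their genotype as *Vasa*-Cre *Srsf1* Fl/del. The alleles of Ctrl mice and the strain of either group are not given in the sources used here. The sources do not say whether the deleted allele was also present in somatic cells. Comparing cKO with Ctrl asked whether these signals, which are sent and received largely by somatic cells, were transcribed at other levels where *Srsf1* was deleted in germ cells. Values were deposited as FPKM, which here counts fragments relative to a gene's length and to a scaling factor of each sample. Levels of different genes can thus be set side by side. Wherever 3 values are given for a group, they stand in the order of its replicates 1, 2 and 3.

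In the testis Sertoli cells secrete desert hedgehog, which binds the Patched receptors on interstitial and peritubular cells. Binding relieves the block that Patched places on Smoothened, and GLI transcription factors then switch on target genes, among them *Ptch1*, *Gli1* and *Hhip* themselves. Mice without *Dhh* form few fetal Leydig cells and have disordered cords. PDGF-A is likewise made in the cords, and its receptor PDGFRα sits on interstitial cells that include Leydig cell precursors.

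The labels were checked first. *Srsf1* was at 82.1, 89.1 and 88.4 FPKM in the Ctrl replicates and 45.1, 46.3 and 51.6 in the cKO replicates, so every cKO testis was below every Ctrl testis. The extraction note in the labels speaks of retinas, whereas the tissue label says testis. All 15 Sertoli cell markers and all 11 Leydig cell markers were above the filter on low values. The 10 retinal markers were at 0.311 FPKM or less in every sample, with *Crx* and *Nrl* at 0 in all 6. One library stood apart. The 20 germ cell markers summed to 268.0, 631.4 and 288.2 FPKM in Ctrl 1, 2 and 3, against 79.6 to 127.4 FPKM in cKO testes, and 7 of the 9 signalling genes had their lowest value of all 6 samples in Ctrl 2. The share of all tested genes that were lowest in that library was not computed. The comparisons were also made with each sample left out in turn, that library included. Because whole testes were sequenced, fewer cells of a type and less RNA per cell cannot be told apart.

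Levels of the 9 genes spanned a wide range. On the FPKM scale the mean over the 6 samples was highest for *Pdgfra*, at 66.1 FPKM, above 95.2% of the 16206 genes that averaged 0.5 FPKM or more, the filter for all tests. It was followed by *Smo* at 38.2, *Pdgfa* at 30.9, *Dhh* at 27.2 and *Gli1* at 23.9 FPKM. *Ptch1* was at 14.6, *Hhip* at 8.63, *Gli2* at 3.45 and *Gli3* at 2.38 FPKM, the last above 29.3% of those genes. *Pdgfra* exceeded *Smo* in 6 of 6 samples without overlap of their ranges, and the same held for *Ptch1* over *Hhip* and for *Hhip* over *Gli2*. *Smo*, *Pdgfa*, *Dhh* and *Gli1* overlapped with their neighbours in this order, each standing above the next in 5 of 6 samples. *Gli2* was above *Gli3* in 5 of 6 samples, with *Gli3* the higher in Ctrl 2. *Gli1* and *Ptch1* kept their order in 6 of 6 samples, although their ranges overlapped between samples.

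**Figure D1:**
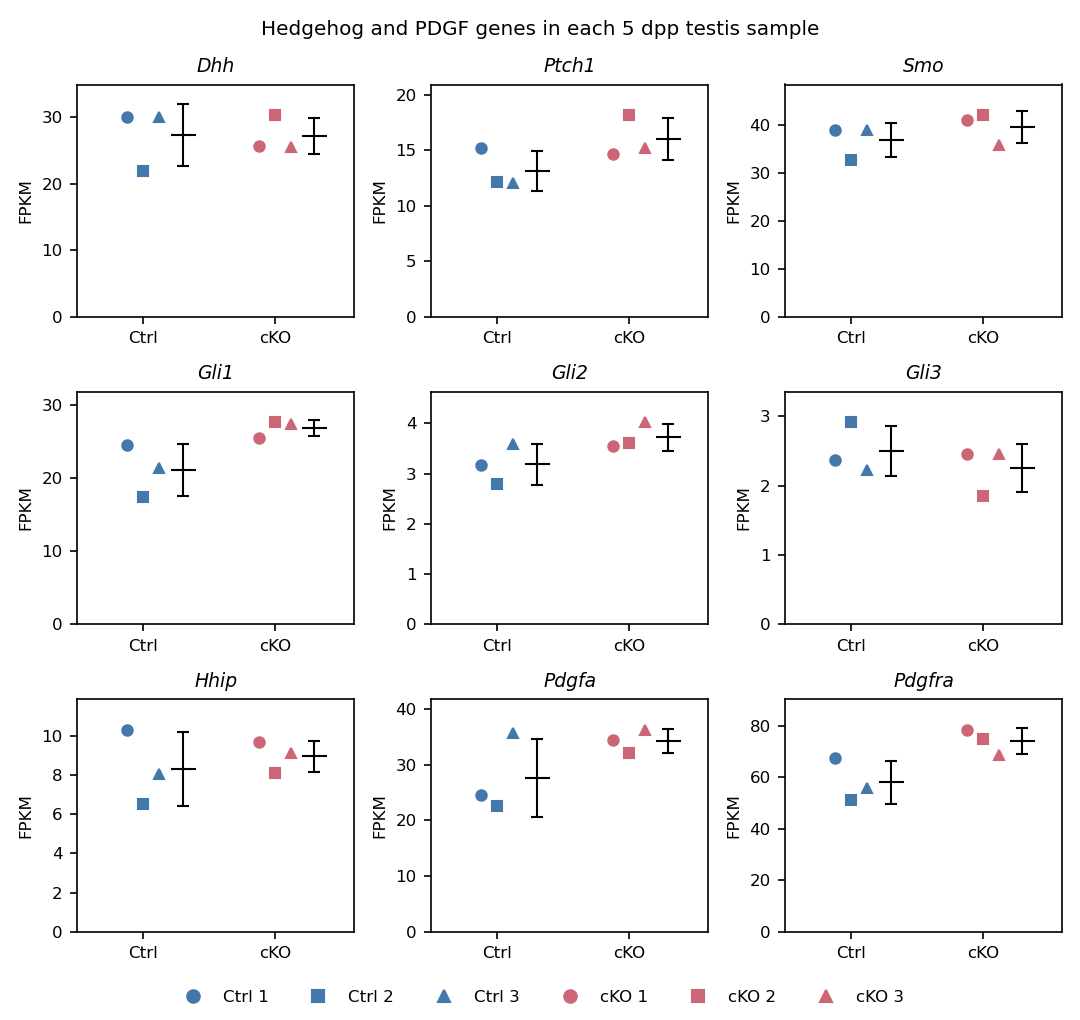
FPKM of the 9 Hedgehog and PDGF genes in each testis (y axes, linear and starting at 0), with Ctrl samples in blue, cKO samples in red and the symbol shape giving the replicate. The horizontal mark and bar beside each group are its mean and SD (n = 3). *Gli1* and *Pdgfra* are the only panels in which every cKO point lies above every Ctrl point.

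The ligand came first in the comparison. *Dhh* (ENSMUSG00000023000, GRCm38, chromosome 15, 98891152 to 98898540, − strand) encodes the Hedgehog ligand of Sertoli cells. It was at 30.0, 21.9 and 30.1 FPKM in the Ctrl replicates and 25.6, 30.4 and 25.5 in the cKO replicates. The groups overlapped, with Ctrl 2 the lowest of all samples and cKO 2 the highest. Group means were 27.3 ± 4.73 FPKM for Ctrl and 27.2 ± 2.76 FPKM for cKO (SD, n = 3 each). On the log2(FPKM + 1) scale, used for all fold changes here, the difference was 0.0025 (SE 0.14, limma adjusted p-value 0.995). Its 95% interval ran from −0.33 to 0.34, or from 0.795-fold to 1.26-fold, so with 3 samples per group a true change anywhere in that span remained possible. Between 1735 and 2230 reads lay behind each value.

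The receptor genes were next. *Ptch1* (ENSMUSG00000021466, chromosome 13, 63508328 to 63573598, − strand) encodes the receptor that binds Hedgehog ligands and is also one of the targets of the pathway. It was at 15.2, 12.1 and 12.1 FPKM in the Ctrl replicates and 14.7, 18.2 and 15.2 in the cKO replicates. Only Ctrl 1 reached into the cKO range. The mean of 16.0 ± 1.89 FPKM for cKO was 122.2% of the 13.1 ± 1.78 FPKM for Ctrl (SD, n = 3 each), and the log2 fold change of 0.27 (SE 0.12) did not pass the threshold of 0.05 (limma, adjusted p-value 0.338). *Smo* (ENSMUSG00000001761, chromosome 6, 29735503 to 29761365, + strand) encodes Smoothened, the membrane protein that transmits the signal. It was at 38.9, 32.6 and 38.8 FPKM in the Ctrl replicates and 40.9, 42.0 and 35.7 in the cKO replicates. These values overlapped, and the log2 fold change was 0.10 (95% interval −0.15 to 0.35, limma adjusted p-value 0.666). *Hhip* (ENSMUSG00000064325, chromosome 8, 79965851 to 80058006, − strand) encodes a membrane protein that captures Hedgehog ligands and thereby limits the signal. It was at 10.3, 6.54 and 8.04 FPKM in the Ctrl replicates and 9.68, 8.09 and 9.13 in the cKO replicates. The cKO values lay inside the Ctrl range, and the log2 fold change was 0.12 (95% interval −0.25 to 0.48, limma adjusted p-value 0.750).

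Of the 3 GLI genes, *Gli1* differed most between the groups. *Gli1* (ENSMUSG00000025407, chromosome 10, 127329882 to 127341974, − strand) encodes a transcriptional activator that is itself switched on by the pathway, and its transcript is commonly read as a gauge of Hedgehog activity. It was at 24.5, 17.4 and 21.3 FPKM in the Ctrl replicates and 25.5, 27.6 and 27.4 in the cKO replicates. Every cKO testis was above every Ctrl testis, although Ctrl 1 came close to cKO 1. Group means were 21.1 ± 3.59 FPKM for Ctrl and 26.8 ± 1.14 FPKM for cKO (SD, n = 3 each), which is 127.4% of Ctrl. The log2 fold change was 0.35 (SE 0.13, 95% interval 0.050 to 0.64), and limma gave a p-value of 0.028 before and 0.262 after adjustment. Over the alternatives tried its adjusted p-value ran from 0.188 to 0.465.

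*Gli2* and *Gli3* stood at far lower levels than *Gli1*. *Gli2* (ENSMUSG00000048402, chromosome 1, 118834132 to 119053619, − strand) encodes the main primary activator of the family. It was at 3.17, 2.79 and 3.60 FPKM in the Ctrl replicates and 3.54, 3.60 and 4.02 in the cKO replicates. Ctrl 3 lay between cKO 1 and cKO 2, and the log2 fold change was 0.18 (95% interval −0.079 to 0.43, limma adjusted p-value 0.468). *Gli3* (ENSMUSG00000021318, chromosome 13, 15463235 to 15730026, + strand) encodes a protein that acts mainly as a repressor when the signal is off. It was at 2.36, 2.91 and 2.23 FPKM in the Ctrl replicates and 2.46, 1.85 and 2.45 in the cKO replicates. *Gli3* was the only one of the 9 genes with a negative log2 fold change, −0.11 (95% interval −0.41 to 0.20, limma adjusted p-value 0.725), and the groups overlapped. Its values rested on 297 to 532 reads per sample.

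The PDGF pair was then compared. *Pdgfa* (ENSMUSG00000025856, chromosome 5, 138976014 to 138997370, − strand) encodes the PDGF-A chain. It was at 24.5, 22.6 and 35.7 FPKM in the Ctrl replicates and 34.4, 32.1 and 36.3 in the cKO replicates. Ctrl 3 stood with the cKO samples and well above the other Ctrl samples. The Ctrl SD of 7.07 FPKM was thus wider than the cKO SD of 2.09 FPKM, and the log2 fold change of 0.33 (SE 0.17) missed the threshold (limma adjusted p-value 0.390). *Pdgfra* (ENSMUSG00000029231, chromosome 5, 75152292 to 75198215, + strand) encodes its receptor tyrosine kinase. It was at 67.4, 51.1 and 56.0 FPKM in the Ctrl replicates and 78.5, 74.8 and 68.6 in the cKO replicates. Every cKO testis was again above every Ctrl testis, with Ctrl 1 and cKO 3 close to each other. Group means were 58.1 ± 8.36 FPKM for Ctrl and 74.0 ± 5.00 FPKM for cKO (SD, n = 3 each), which is 127.2% of Ctrl. The log2 fold change was 0.35 (SE 0.12, 95% interval 0.071 to 0.63), and limma gave a p-value of 0.021 before and 0.239 after adjustment. Over the alternatives its adjusted p-value ran from 0.171 to 0.491. Between 9306 and 12523 reads lay behind each value, so counting error was small beside the spread between testes.

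Across the 9 genes, limma called 0 higher and 0 lower at the adjusted threshold of 0.05, and it called 0% of the 16206 tested genes in either direction. That 0% belongs to this fit. With protein-coding genes alone limma called 176 genes lower and 37 higher, with 0 of the 9 among them. The study itself, using DESeq2 at an adjusted threshold of 0.05, reported genes changed in both directions. Limma voom on the recovered reads, the other tool run, also called 0 of the 9. At an unadjusted p-value under 0.05, 2 of the 9 genes (*Gli1* and *Pdgfra*) were higher, where 6.6% of all tested genes were, and 0 were lower, where 9.31% were. The same 2 genes were higher without overlap between groups, against 10.3% of all tested genes, and 0 were lower without overlap, against 12.8%. The median log2 fold change of the 9 genes was 0.18, with 8 positive and 1 negative, beside a median of 0.0027 over all tested genes.

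**Figure D2:**
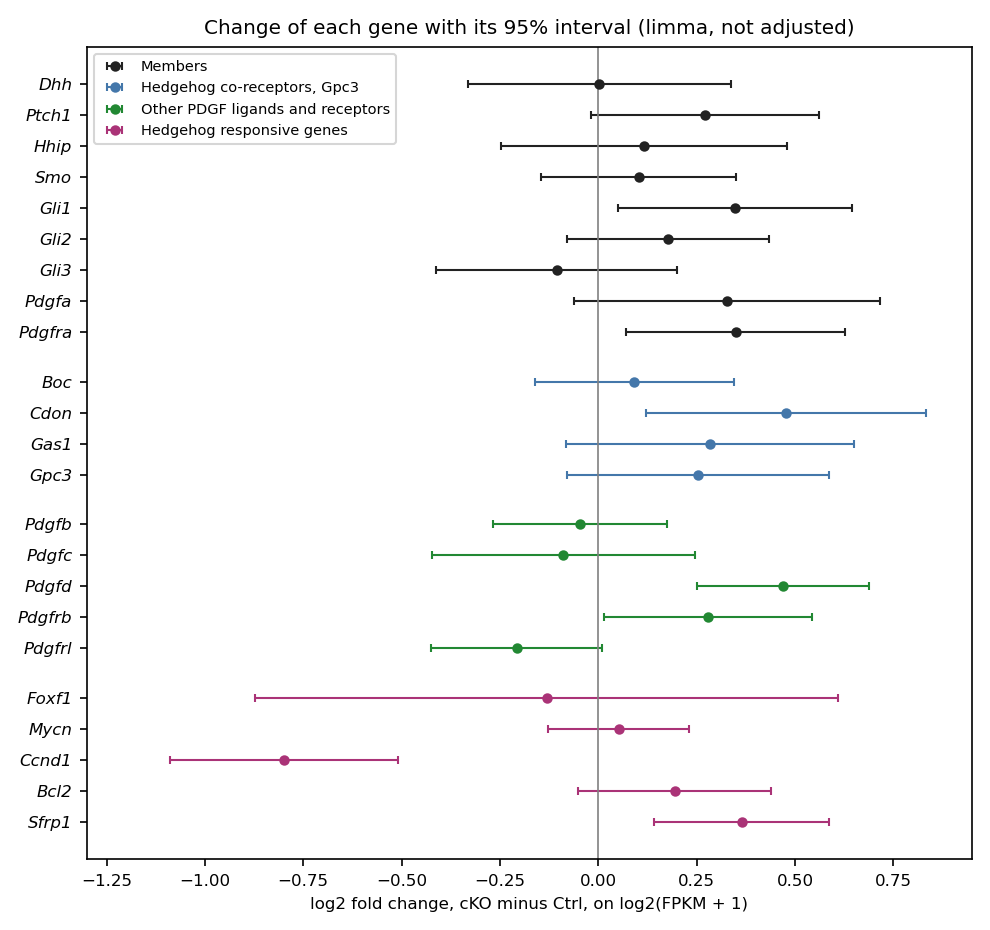
Log2 fold change of each gene, cKO minus Ctrl, on the log2(FPKM + 1) scale (x axis), with its unadjusted 95% interval from limma, for the 9 genes (black), Hedgehog co-receptors with *Gpc3* (blue), other PDGF ligands and receptors (green) and Hedgehog responsive genes (purple). Intervals of *Gli1*, *Pdgfra*, *Cdon*, *Pdgfd*, *Pdgfrb* and *Sfrp1* lie above 0, that of *Ccnd1* lies below 0, and none of the genes plotted passed the adjusted threshold.

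The start site sequences of both receptor genes are shown because they stand at opposite ends of the 9 windows found in their content of CpG dinucleotides, and *Ptch1* is a textbook GLI target. RefSeq (GRCm38.p6) gave 9 windows, from 250 bases before to 50 after a start site, for 8 of the 9 genes, 2 of them for *Pdgfa*. *Gli1* had no window. The *Pdgfra* window (chr5:75152001-75152300, + strand) held 5 CpG, the fewest of the 9 windows, and 9 of its bases lie in an annotated exon. The *Ptch1* window (chr13:63565686-63565985, − strand) held 47, the most of the 9, against a median of 7 over all 32851 windows. Its start site lies 7863 bases inside the annotated gene, and 50 of its bases are exonic while the rest lies in an intron of a longer transcript. Capitals mark CpG.
Pdgfra: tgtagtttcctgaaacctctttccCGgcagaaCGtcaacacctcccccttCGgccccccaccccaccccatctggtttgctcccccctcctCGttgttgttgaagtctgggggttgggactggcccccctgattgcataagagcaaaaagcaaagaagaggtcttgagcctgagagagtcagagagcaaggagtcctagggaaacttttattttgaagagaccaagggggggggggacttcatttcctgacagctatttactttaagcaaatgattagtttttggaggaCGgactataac
Ptch1: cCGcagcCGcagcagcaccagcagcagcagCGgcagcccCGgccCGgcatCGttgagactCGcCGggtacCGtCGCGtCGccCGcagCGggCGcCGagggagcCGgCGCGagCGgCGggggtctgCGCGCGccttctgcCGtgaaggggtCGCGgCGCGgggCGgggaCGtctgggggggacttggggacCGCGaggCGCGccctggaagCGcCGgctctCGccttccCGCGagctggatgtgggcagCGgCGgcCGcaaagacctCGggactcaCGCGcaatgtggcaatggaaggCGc
The canonical GLI motif GACCACCCA, searched on both strands, was in 0 of the 9 windows and in 0.253% of all 32851 windows. With a motif this rare, 9 short windows are too few for its absence to set these genes apart. The GC box GGGCGG, also on both strands, was in 7 of the 9 windows, among them those of *Ptch1* and *Dhh*, against 35.7% of all windows.

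Other genes of the Hedgehog pathway were read from fixed lists of 42 genes, of which 35 were above the filter. In limma 0 of the 35 were called in either direction. At an unadjusted p-value under 0.05 in limma, 4 were higher (among them *Cdon*, *Scube1* and *Sfrp1*) and 2 lower (*Scube2* and *Ccnd1*), against 6.6% and 9.31% of all tested genes. Without overlap between groups, 12 of the 35 were higher and 4 lower, against 10.3% and 12.8% of all tested genes. Their median log2 fold change was 0.078. The other Hedgehog ligands were near the floor. *Shh* was at 0.022, 0.295 and 0.085 FPKM in the Ctrl replicates and 0.246, 0.168 and 0.750 in the cKO replicates, from 1 to 33 reads, and *Ihh* was at 0.083 to 0.234 FPKM over the 6 samples. *Dhh* was thus the only Hedgehog ligand gene above the filter.

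Among the co-receptors, *Cdon*, whose product helps Patched bind the ligand, was at 12.0, 11.5 and 16.0 FPKM in the Ctrl replicates and 21.9, 17.7 and 16.5 in the cKO replicates. Its log2 fold change was 0.48 (SE 0.15, limma adjusted p-value 0.216). *Gas1*, another co-receptor, was at 34.7 to 35.8 FPKM in Ctrl testes and at 37.7, 37.6 and 56.1 FPKM in cKO 1, 2 and 3, so that cKO 3 set most of its difference. *Gpc3*, a cell surface glypican that binds Hedgehog ligands, had the same pattern, at 116.8, 116.0 and 105.5 FPKM in the Ctrl replicates and 123.4, 118.1 and 166.6 in the cKO replicates (log2 fold change 0.25, SE 0.14, limma adjusted p-value 0.432). *Boc*, the third co-receptor of the group with *Cdon* and *Gas1*, overlapped between groups, with a log2 fold change of 0.092 (limma adjusted p-value 0.710).

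In the transduction list, 20 genes were tested, 17 with a positive and 3 with a negative log2 fold change, and the median was 0.071. *Sufu*, the cytoplasmic inhibitor of GLI proteins, averaged 5.20 ± 0.522 FPKM for Ctrl and 6.24 ± 0.330 FPKM for cKO (SD, n = 3 each), without overlap (log2 fold change 0.23, SE 0.098, limma adjusted p-value 0.321). Of the ligand release genes, *Scube1*, one of a family of secreted proteins that includes Hedgehog carriers, was at 1.72, 1.85 and 2.20 FPKM in the Ctrl replicates and 3.28, 2.98 and 3.31 in the cKO replicates. Its log2 fold change was 0.52 (SE 0.11), and its adjusted p-value was 0.112 in limma and 0.045 in limma voom on the recovered reads. *Scube2* went the other way, averaging 1.07 ± 0.119 FPKM for Ctrl and 0.644 ± 0.167 FPKM for cKO (SD, n = 3 each), with a log2 fold change of −0.34 (SE 0.13, limma adjusted p-value 0.298).

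The 6 tested genes of the Hedgehog responsive list did not share a direction, with 4 positive and 2 negative. *Mycn*, a proliferation gene, was at 26.2 ± 1.39 FPKM for Ctrl and 27.1 ± 0.330 FPKM for cKO (SD, n = 3 each), and *Foxf1* overlapped too. *Bcl2*, which encodes a survival factor, was at 1.78, 1.49 and 1.77 FPKM in the Ctrl replicates and 2.05, 2.01 and 2.13 in the cKO replicates (log2 fold change 0.19, SE 0.10, limma adjusted p-value 0.417). *Sfrp1*, a secreted WNT inhibitor, was at 46.8, 49.5 and 56.3 FPKM in the Ctrl replicates and 64.0, 69.0 and 63.8 in the cKO replicates (log2 fold change 0.36, SE 0.094, limma adjusted p-value 0.163). *Ccnd1*, which encodes the cell cycle protein cyclin D1, was at 5.47, 6.13 and 5.27 FPKM in the Ctrl replicates and 2.27, 3.19 and 3.01 in the cKO replicates. That is 50.2% of Ctrl, with every cKO testis below every Ctrl testis, and a log2 fold change of −0.80 (SE 0.12, limma adjusted p-value 0.086). With protein-coding genes alone its adjusted p-value in limma was 0.025, and in limma voom 0.039. The germ cell markers, given below, were lower in the same samples, and their part in the value of *Ccnd1* was not tested.

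The other PDGF genes came from fixed lists of 33 genes, all above the filter. In limma 0 of the 33 were called, and the median log2 fold change was 0.016. At an unadjusted p-value under 0.05 in limma, 2 were higher (*Pdgfd* and *Pdgfrb*) and 0 lower, against 6.6% and 9.31% of all tested genes. Without overlap, 4 of the 33 were higher and 2 lower, against 10.3% and 12.8% of all tested genes. *Pdgfd*, whose product binds PDGFRβ, was at 9.77, 8.83 and 9.77 FPKM in the Ctrl replicates and 13.6, 14.6 and 12.3 in the cKO replicates. The groups were well apart, at a cKO mean of 142.8% of Ctrl and a log2 fold change of 0.47 (SE 0.093). Its adjusted p-value was 0.107 in limma and ran from 0.052 to 0.330 over the alternatives. *Pdgfrb*, the second PDGF receptor gene, was at 7.83, 6.56 and 7.23 FPKM in the Ctrl replicates and 8.05, 8.61 and 10.3 in the cKO replicates (log2 fold change 0.28, SE 0.11, limma adjusted p-value 0.30). *Pdgfrl*, which encodes a protein resembling the PDGF receptors, stood the other way, at 6.68, 6.72 and 6.02 FPKM in the Ctrl replicates and 5.67, 5.02 and 5.74 in the cKO replicates. It was the only one of these ligand and receptor genes that was lower without overlap (log2 fold change −0.21, 95% interval −0.42 to 0.010, limma adjusted p-value 0.332). The ligand genes *Pdgfb* and *Pdgfc* overlapped between groups, with log2 fold changes of −0.046 (95% interval −0.27 to 0.17) and −0.089 (95% interval −0.42 to 0.24). Of the 23 genes of PDGF receptor signal transduction, 13 were positive and 10 negative, at a median of 0.040.

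Cell type markers moved in the same samples. For the counts without overlap given here, the shares over all tested genes were 10.3% higher and 12.8% lower. All 19 tested germ cell markers had negative log2 fold changes, with a median of −1.57, and 17 did not overlap between groups. The 11 Leydig cell markers summed to between 502.9 and 691.3 FPKM for Ctrl and between 750.9 and 838.6 FPKM for cKO, with 4 higher and 1 lower without overlap. The 10 endothelial markers summed to between 66.7 and 75.4 FPKM for Ctrl and between 85.2 and 96.0 FPKM for cKO, with 5 higher without overlap. The 12 markers of interstitial progenitors and fibroblasts, the cells in which *Pdgfra* is mainly found, all had positive log2 fold changes, at a median of 0.20. Of these markers, 1 was higher and 0 were lower without overlap. Their sums overlapped, from 1226 to 1412 FPKM for Ctrl and from 1260 to 1981 FPKM for cKO. The sums of the 15 Sertoli cell markers, of the cells that make *Dhh*, overlapped as well, from 2699 to 3959 FPKM for Ctrl and from 3399 to 3962 FPKM for cKO. Taken singly, 11 of these markers had negative and 4 had positive log2 fold changes, at a median of −0.18. Without overlap, 7 were lower and 1 was higher. The 8 peritubular myoid markers summed to between 527.0 and 540.6 FPKM for Ctrl and between 334.6 and 518.6 FPKM for cKO, with 3 lower and 1 higher without overlap. The sums of the 10 macrophage and 5 red cell markers overlapped between the groups, and 0 of those 15 genes separated. The part of any of these lists in the values of the 9 genes was not tested.

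**Figure D3:**
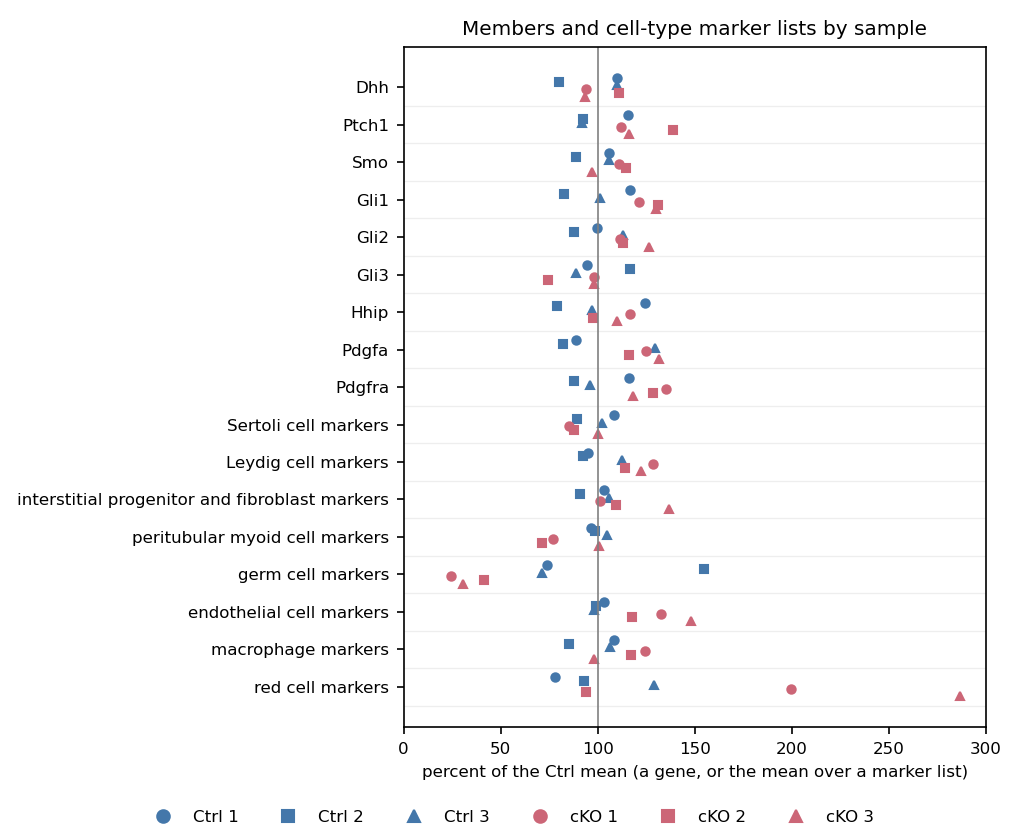
Each of the 9 genes, and the mean over each cell type marker list, as a percent of its Ctrl mean (x axis, linear, 100 marked by the grey line) in each of the 6 testes, with Ctrl in blue, cKO in red and the symbol shape giving the replicate. The germ cell markers stand at 73.8%, 154.7% and 71.5% in the Ctrl replicates and at 24.5%, 41.4% and 30.4% in the cKO replicates. *Gli1* stands at 116.4%, 82.4% and 101.2% in the Ctrl replicates and at 121.2%, 131.1% and 129.9% in the cKO replicates. A relation between the 2 was not tested.

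Patterns over the 6 samples were then compared between genes. For *Dhh*, *Gli1*, *Pdgfa* and *Pdgfra*, 8235 protein-coding genes averaging 5 FPKM or more were ranked by the root mean square difference of their centred log2(FPKM + 1) values from those of the member. The 3 nearest to *Dhh* were *Lsr*, *Rasl12* and *Tspan5*, at differences of 0.035, 0.046 and 0.053 on the log2 scale, where *Dhh* itself varied by 0.17 about its mean. The 3 nearest to *Gli1* were *Itgav*, *Islr2* and *Smad7*, at 0.045, 0.047 and 0.048. *Arhgdig*, *Bmp6* and *Gnptg* were nearest to *Pdgfa*, at 0.051, 0.061 and 0.063. Nearest to *Pdgfra* were *Cdh5*, *Syde1* and *Stx1a*, at 0.036, 0.042 and 0.048. *Cdh5*, the VE-cadherin gene of endothelial cells, was at 35.2, 25.7 and 27.0 FPKM in the Ctrl replicates and 40.3, 38.8 and 34.2 in the cKO replicates. With 6 samples from 1 experiment, such likeness is a description of these libraries. *Cdh5* itself overlapped between groups, Ctrl 1 standing above cKO 3.

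Without Ctrl 2 the log2 fold change was 0.22 for *Gli1* and 0.26 for *Pdgfra*, and −0.14 for *Dhh*. Genes that separate with all samples also separate when any sample is left out, so *Gli1* and *Pdgfra* had to remain without overlap. Without Ctrl 2 no other member of the 9 joined them, where 13.5% of all tested genes were higher without overlap. Leaving out the other samples in turn gave from 2 to 4 such members, these included, against 14.7% to 17.1% of all tested genes.

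**Figure D4:**
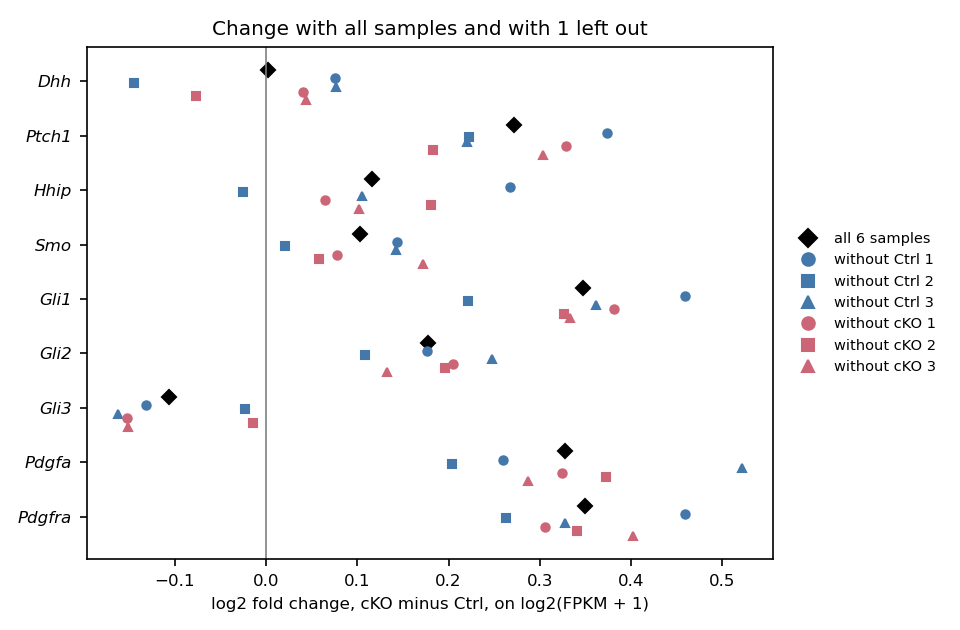
Log2 fold change of each of the 9 genes, cKO minus Ctrl, on the log2(FPKM + 1) scale (x axis), with all 6 samples (black diamond) and with each sample left out (coloured symbols, Ctrl in blue and cKO in red). The values of *Gli1* stay between 0.22 and 0.46 and those of *Pdgfra* between 0.26 and 0.46, whereas those of *Dhh* and *Hhip* fall on both sides of 0.

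Each of the 9 genes shares its span with at least 1 other annotated gene, and the sources used here do not say whether reads were counted by strand. The highest value of an overlapping gene in any sample was 6.18 FPKM, for the antisense gene *6330403L08Rik* over *Pdgfa*. Over *Gli1* it was 1.23 FPKM and over *Pdgfra* 4.05 FPKM.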

How the data were processed

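RNA was taken from 6 samples of whole testis at 5 dpp, and groups and replicate numbers came from the sample titles. The sources used here do not say how many testes made up a sample. Where the text speaks of a Ctrl or cKO testis, it means such a sample. The authors aligned paired-end reads with HISAT2 2.0.5 to GRCm38, counted reads per gene with featureCounts and deposited FPKM for 54532 genes with gene length and position. Positions of all 9 genes matched GENCODE M21. FPKM multiplied by gene length came out as whole multiples of 1 step per sample for 100% of values (within 0.01), so reads were recovered. They summed to 15448191 to 18964743 per sample. The scaling of the deposited values between samples followed median-of-ratios factors of these reads, to within a relative 3.74e-12, and not their sums. Such a factor compares each gene's reads with the geometric mean of that gene over the samples. The median is taken over genes with reads in every sample. For a length of 1 kb, 3 reads correspond to 0.158 to 0.194 FPKM, a floor that covers counting error only.

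Limma 3.58.1 in R 4.3.3 was run on log2(FPKM + 1) for the 16206 genes averaging 0.5 FPKM or more, with the 2 groups, no covariate and a mean-variance trend. Two-sided p-values were adjusted over all tested genes (Benjamini-Hochberg, threshold 0.05). Fold changes on this scale understate those of low genes. Nothing in the labels ties samples to litters or days, so p-values measure the spread between these samples. Members, lists and the genes named were chosen with earlier results of these data known. The genes named were the 9 members, the other ligands, receptors and co-receptors of both families (1 of them is not reported here), any list gene past the threshold, and for 4 members the 3 genes of nearest pattern. Other named genes were chosen after their values were seen. Alternatives were to add 0.1 instead of 1, to filter at 1 FPKM or not at all, to use TPM, quantile normalization, no trend, protein-coding genes alone, limma voom on recovered reads, the replicate number as a block and leaving out each sample.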

Additional observations from a re-analysis of the deposited data

How the results depend on the processing

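None of the 9 genes passed the threshold in limma under any of the alternatives listed above, and all but *Dhh* and *Hhip* kept their direction under each of them. Leaving out each sample moved *Dhh* from −0.14 (without Ctrl 2) to 0.077 and *Hhip* from −0.026 (without Ctrl 2) to 0.27, against 0.0025 and 0.12 with all samples. *Dhh* was at −0.077 without cKO 2. The number of members higher without overlap was 2 to 4 when a sample was left out, a check added after the data were seen. By construction it could not fall below the 2 found with all samples. *Srsf1* (−0.85, limma adjusted p-value 0.058) passed with TPM (−0.86, adjusted p-value 0.036), protein-coding genes alone (−0.85, 0.016) and limma voom (−0.86, 0.025). Against 0 lower and 0 higher genes in limma (1508 and 1069 at an unadjusted p-value under 0.05), there were 176 and 37 with protein-coding genes alone, 63 and 22 in limma voom, 1 and 4 with TPM, 0 and 1 without the trend, and 0 to 15 and 0 to 3 with a sample left out, the highest total without Ctrl 2. Of the other Hedgehog genes, 1 was lower with protein-coding genes alone and in limma voom (*Ccnd1* in both), and 1 was higher in limma voom (*Scube1*). The median of the other PDGF genes ran from 0.0018 to 0.056 with a sample left out (0.056 without cKO 1), against 0.016. The cause of these shifts was not tested.

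A limma fit that took replicate numbers as a block called 84 lower and 14 higher genes, among them *Srsf1* (−0.85, adjusted p-value 0.033), and 0 of the 9 members. Deviations of same-numbered samples, each taken from its group mean, correlated over genes at 0.066, 0.016 and 0.088, and 5 of 6 samples correlated best with their own number, a hint from the data and not from the design. Between 297 and 12523 reads per sample lay behind the values of the 9 genes, whereas *Shh*, with 1 to 33 reads, was too shallow for a comparison.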

Other observations

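Ratios between these genes within a sample were looked at after their values had been seen, and no test was made of them. The ratio of *Gli1* to *Dhh* FPKM was 0.817, 0.794 and 0.709 for the Ctrl replicates and 0.996, 0.910 and 1.07 for the cKO replicates, without overlap. *Ptch1* over *Dhh* was 0.506, 0.554 and 0.401 for the Ctrl replicates and 0.573, 0.599 and 0.596 for the cKO replicates, also without overlap. For *Gli1* over *Dhh*, Ctrl 2, which was low in most of the single genes, lay between the other Ctrl samples. For *Ptch1* over *Dhh* it was the highest Ctrl sample, and its 0.554 stood closer to cKO 1 at 0.573 than to Ctrl 1 at 0.506. *Gli1* over *Gli3* was 10.4, 5.96 and 9.58 for the Ctrl replicates and 10.4, 14.9 and 11.2 for the cKO replicates, with Ctrl 1 and cKO 1 almost equal.

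*Tcf21*, a transcription factor gene of interstitial cells, was at nearly the same level in both groups (log2 fold change 0.027, 95% interval −0.20 to 0.26, limma adjusted p-value 0.915). *Pdgfra* over *Tcf21* was 0.766, 0.687 and 0.678 for the Ctrl replicates and 0.887, 0.963 and 0.824 for the cKO replicates. *Gli1* over *Tcf21* was 0.279, 0.233 and 0.258 for the Ctrl replicates and 0.289, 0.356 and 0.328 for the cKO replicates. Both ratios separated the groups, as *Pdgfra* and *Gli1* already did alone while *Tcf21* was nearly level. The share of other gene pairs whose ratios separate the groups was not computed. In contrast, *Gli1* over *Pdgfra* overlapped, at 0.362 ± 0.021 in Ctrl and 0.364 ± 0.037 in cKO testes (SD, n = 3 per group), and *Pdgfra* over *Pdgfa* overlapped too, at 2.19 ± 0.594 and 2.17 ± 0.241.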
